A study of Mus musculus with 6 samples.

Results

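The Schlafen family is a group of immune-regulated genes that lie together on mouse chromosome 11. Its members here were the 7 genes Slfn1, Slfn2, Slfn3, Slfn4, Slfn5, Slfn8 and Slfn9, out of 18193 genes with a probe set of their own, and they were read on the 11 probe sets that the array's annotation pairs with exactly 1 of these symbols. A further probe set that is shared between Slfn3 and Slfn4 was read apart. P14 cytotoxic T cells, whose transgenic receptor recognises the viral peptide gp33, came from the spleens of C57Bl/6 mice. They were activated with gp33 (24 h) and then infected with a retrovirus for GFP-HDAC7 that carries a phosphorylation-deficient mutant of HDAC7, a deacetylase of class IIa that acts as a repressor while it stays in the nucleus. The 3 GFP positive samples are sorted cells that carry the mutant, and the 3 GFP negative samples are sorted cells of infected cultures without GFP, which the labels call control, so no cells with an empty vector enter the comparison. The samples are labelled as biological replicas, but whether that means different mice or different cultures is not stated, and a p-value therefore covers the spread among these 6 samples alone, which may be technical.

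Schlafen proteins share an N-terminal core related to nucleases. The short forms Slfn1 and Slfn2 consist of little more than this core, Slfn3 and Slfn4 are intermediate, and the long forms Slfn5, Slfn8 and Slfn9 add a C-terminal helicase-like part. The family is known for restraining lymphocyte growth: forced expression of Slfn1 in mouse T cells slows their division, and mice with a defective Slfn2 have T cells that fail to stay quiescent. Several members are also induced by type I interferon, which acts through the receptor chains Ifnar1 and Ifnar2, the kinases Jak1 and Tyk2 and a transcription factor containing Stat2 and Irf9 that binds the interferon-stimulated response element.

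The promoter windows below are shown because 4 of the genes rose together (values follow) and because the windows carry different short motifs. Printed are the windows of these 4 genes and of Slfn5. Those of Slfn3 and Slfn4, which also hold the ETS core, are described but not printed. All 7 members have a promoter window in RefSeq (build GRCm38.p6), 250 bases before to 50 after the transcript start. The windows of Slfn1 (chr11:83116570-83116869), Slfn2 (chr11:83064862-83065161) and Slfn5 (chr11:82951852-82952151) lie on the plus strand, and those of Slfn8 (chr11:83020761-83021060) and Slfn9 (chr11:82991781-82992080) on the minus strand. Each is printed along the strand of its gene. Capitals mark the core of the interferon-stimulated response element, a pair of GAAA runs with 2 bases of any kind between them (TTTC runs on the other strand), and the ETS core, AGGAAG or CTTCCT on the other strand.
Slfn1: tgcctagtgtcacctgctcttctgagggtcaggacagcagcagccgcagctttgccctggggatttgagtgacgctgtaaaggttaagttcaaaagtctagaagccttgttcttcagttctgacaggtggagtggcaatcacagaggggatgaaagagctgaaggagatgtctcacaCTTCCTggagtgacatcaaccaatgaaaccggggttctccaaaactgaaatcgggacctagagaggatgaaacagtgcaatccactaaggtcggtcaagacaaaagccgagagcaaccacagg
Slfn2: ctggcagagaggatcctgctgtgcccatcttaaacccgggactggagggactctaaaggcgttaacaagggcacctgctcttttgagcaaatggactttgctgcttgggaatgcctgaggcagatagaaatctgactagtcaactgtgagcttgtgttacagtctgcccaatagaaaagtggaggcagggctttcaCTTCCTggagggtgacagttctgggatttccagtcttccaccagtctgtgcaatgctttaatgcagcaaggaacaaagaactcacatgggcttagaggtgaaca
Slfn8: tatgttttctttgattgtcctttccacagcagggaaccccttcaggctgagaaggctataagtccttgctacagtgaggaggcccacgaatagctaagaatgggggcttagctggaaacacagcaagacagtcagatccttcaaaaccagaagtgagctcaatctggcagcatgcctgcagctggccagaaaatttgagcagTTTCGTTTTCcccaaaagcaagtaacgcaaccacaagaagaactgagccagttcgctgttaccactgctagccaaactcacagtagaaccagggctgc
Slfn9: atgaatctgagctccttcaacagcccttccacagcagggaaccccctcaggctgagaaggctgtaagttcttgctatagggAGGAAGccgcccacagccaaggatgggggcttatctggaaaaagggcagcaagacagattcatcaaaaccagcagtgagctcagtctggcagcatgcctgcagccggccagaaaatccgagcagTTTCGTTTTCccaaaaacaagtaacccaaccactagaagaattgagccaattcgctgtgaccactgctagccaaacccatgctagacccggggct
Slfn5: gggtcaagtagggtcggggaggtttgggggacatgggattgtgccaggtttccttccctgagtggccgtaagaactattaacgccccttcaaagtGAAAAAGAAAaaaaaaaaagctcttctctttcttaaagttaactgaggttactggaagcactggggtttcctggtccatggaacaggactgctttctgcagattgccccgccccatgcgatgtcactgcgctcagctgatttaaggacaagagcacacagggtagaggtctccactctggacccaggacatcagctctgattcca

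The windows of the long forms Slfn8 and Slfn9 both hold TTTCGTTTTC, starting 48 and 45 bases before the start, and they were identical at 246 of 295 aligned bases (83.4%). The Slfn5 window holds GAAAAAGAAA, 155 bases before the start. The response element core was found in 3.44% of all 32851 promoter windows of the same length on either strand. Of the interferon-induced genes listed further on, 18 have a window, and 11 of these held the core in at least 1 window. The first share counts windows and the second counts genes, so they are not directly comparable. It was not found in the windows of Slfn1, Slfn2, Slfn3 or Slfn4. These hold CTTCCT, 73, 54, 41 and 72 bases before the start, and Slfn3 also holds AGGAAG at 59 bases. The ETS core is not limited to them, since the Slfn9 window holds it as well, 169 bases before the start. RefSeq lists a second Slfn8 window, in which the same response element run starts 136 bases before the start. The windows of Slfn1 and Slfn2 share the run cacttcctggag around CTTCCT. Slfn4, which did not give a call, shares a longer run there with Slfn1, of 15 bases against 12. With Slfn2 it shares 11 bases. The ETS core is common, being present in 35.4% of all windows. The interferon-gamma activated site (TTC, 3 bases of any kind, GAA) and the MEF2 core (CTA, 4 bases of any kind, TAG), which on either strand occur in 8.3% and 3.69% of windows, were not found in any of the members' windows. A match is a run of letters and not a shown binding site.

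Control readings came before the family. Of the Hdac7 probe sets, 1420812_at averaged 8.15 ± 0.05 in GFP positive and 4.83 ± 0.03 in GFP negative samples, and 1420813_at averaged 6.19 ± 0.02 in GFP positive and 6.74 ± 0.08 in GFP negative samples (log2 signal, SD, n = 3 each). Which of them lies in the stretch expressed from the retrovirus is not stated, and one outside it checks nothing. Median log2 signal per array lay between 1.63 and 1.72, and the 3 TrpnX controls for a bacterial transcript averaged 0.66 in GFP positive and 0.64 in GFP negative samples, so signals near these values are close to background. All 6 CD8 T cell markers read on the array (Cd3d, Cd3e, Cd3g, Cd8a, Cd8b1 and Thy1) had group means of at least 6.8. On the log2 scale their summed level was 12.88 to 13.06 in GFP positive and 12.32 to 12.62 in GFP negative samples. GFP positive 3 and GFP negative 1 stood apart on control probe sets, which also differed by group. The 9 hybridisation controls averaged 7.87, 7.90 and 8.19 on GFP positive 1 to 3. They averaged 7.75, 7.84 and 7.74 on GFP negative 1 to 3, lower than on every GFP positive array. The 5′ probe set of 18S ribosomal RNA read 8.98, 9.06 and 9.78 on GFP positive 1 to 3. It read 11.02, 10.20 and 9.29 on GFP negative 1 to 3, where only GFP negative 3 lay within the GFP positive range. The part of these control levels in the changes below was not tested. The number of arrays limits the precision of each value.

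Slfn1, Slfn2, Slfn8 and Slfn9 each rose in GFP positive cells on their brightest probe set, by 1.92-fold to 3.80-fold, and no member fell. The genes that rose include both short forms and 2 of the 3 long forms, while Slfn3, Slfn4 and Slfn5 read low in both groups and did not give a call. Of the 11 member probe sets, 6 passed a filter on dim signal (a mean of at least 1.27 over the 6 arrays), from 5 of the 7 genes. Of these 6, 4 were called higher and 0 lower by limma, fitted over all 27022 probe sets past the filter with a threshold of 0.05 on the adjusted p. Over the whole array 32.5% of tested probe sets were called, 19.3% higher and 13.2% lower in GFP positive cells. The higher share of the calls, 59.4% as deposited, depended on scaling and was 49.9% after quantile normalization and 39.3% after centring each array on its median. In bulk samples, more RNA per cell and more cells of a kind that expresses a gene cannot be told apart.

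**Figure D1:**
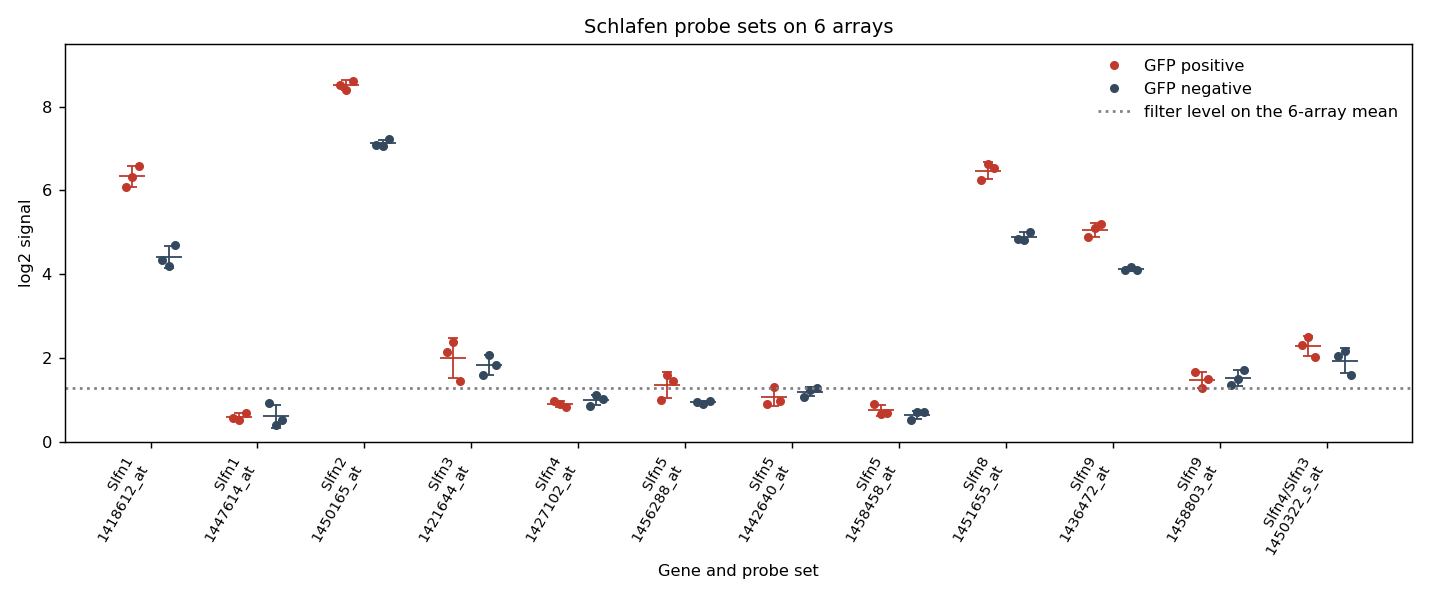
Log2 signal (y axis) of the 11 Schlafen probe sets and the shared Slfn4/Slfn3 probe set (x axis) on the 3 GFP positive and 3 GFP negative arrays, with points for arrays and bars for the mean ± SD. The brightest probe sets of Slfn1, Slfn2, Slfn8 and Slfn9 show separate groups, and most of the others lie near the dotted filter level of 1.27.

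Slfn2, the short form that T cells need for quiescence and survival in mice, read 8.53, 8.39 and 8.62 in GFP positive samples 1 to 3, against 7.09, 7.06 and 7.22 in GFP negative samples 1 to 3 (log2 signal, probe set 1450165_at). The groups did not overlap, and the samples of each group lay close together. The change was 1.39 ± 0.09 (log2, SE; 2.62-fold), with a 95% interval of 1.17 to 1.61 and a limma adjusted p of 1.5e-04. Of all tested probe sets, 98.6% had a lower signed change, so that falls of any size count as lower.

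Slfn1, the founding member of the family, read 6.09, 6.32 and 6.59 in GFP positive samples, against 4.34, 4.19 and 4.70 in GFP negative samples (log2 signal, probe set 1418612_at). The number 3 sample was the highest in both groups, and the lowest GFP positive sample still lay above the highest GFP negative sample. This was the largest change among the Schlafen probe sets, 1.93 ± 0.17 (log2, SE, 3.80-fold, 95% interval 1.53 to 2.32, limma adjusted p = 3.1e-04). Ordered from the largest rise to the largest fall, it ranked 121 among the 27022 tested. The second Slfn1 probe set, 1447614_at, read 0.51 to 0.68 in GFP positive and 0.39 to 0.91 in GFP negative samples. Those are background levels on which the groups overlap, so this probe set gives no direction.

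Slfn8, a long form with the helicase-like part, read 6.26, 6.63 and 6.53 in GFP positive samples, against 4.84, 4.83 and 5.01 in GFP negative samples (log2 signal, probe set 1451655_at). The groups were well apart, by a change of 1.58 ± 0.12 (log2, SE; 2.99-fold; 95% interval 1.31 to 1.86; limma adjusted p = 1.9e-04). Slfn9, the neighbouring long form, read 4.88, 5.09 and 5.20 in GFP positive samples, against 4.09, 4.18 and 4.09 in GFP negative samples (log2 signal, probe set 1436472_at). Its change was the smallest of the 4, at 0.94 ± 0.10 (log2, SE; 1.92-fold; 95% interval 0.70 to 1.18; limma adjusted p = 6.5e-04), again without overlap. The other Slfn9 probe set, 1458803_at, read 1.28 to 1.66 in GFP positive and 1.34 to 1.71 in GFP negative samples and was not called (-0.04, 95% interval -0.35 to 0.27, limma adjusted p = 0.84), though its sign turned to 0.03 after quantile normalization. Slfn8, Slfn9 and Slfn10-ps are similar in sequence, and whether their probes read each other's transcripts was not tested.

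The sizes of these rises depended on how low signal was treated. When 32 was added to the linear signals and logs were taken again, the changes of Slfn1, Slfn8 and Slfn9 were 1.08, 0.97 and 0.41 on the log2 scale, each smaller by over 1.5 times, while that of Slfn2 was 1.21. All 4 were still called, with limma adjusted p between 4.3e-04 for Slfn2 and 0.0022 for Slfn9. On that scale Slfn2 had the largest change. Without GFP positive 3 and GFP negative 1 the changes as deposited were 1.76 for Slfn1, 1.32 for Slfn2, 1.53 for Slfn8 and 0.85 for Slfn9, with limma adjusted p from 0.0083 to 0.015.

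**Figure D2:**
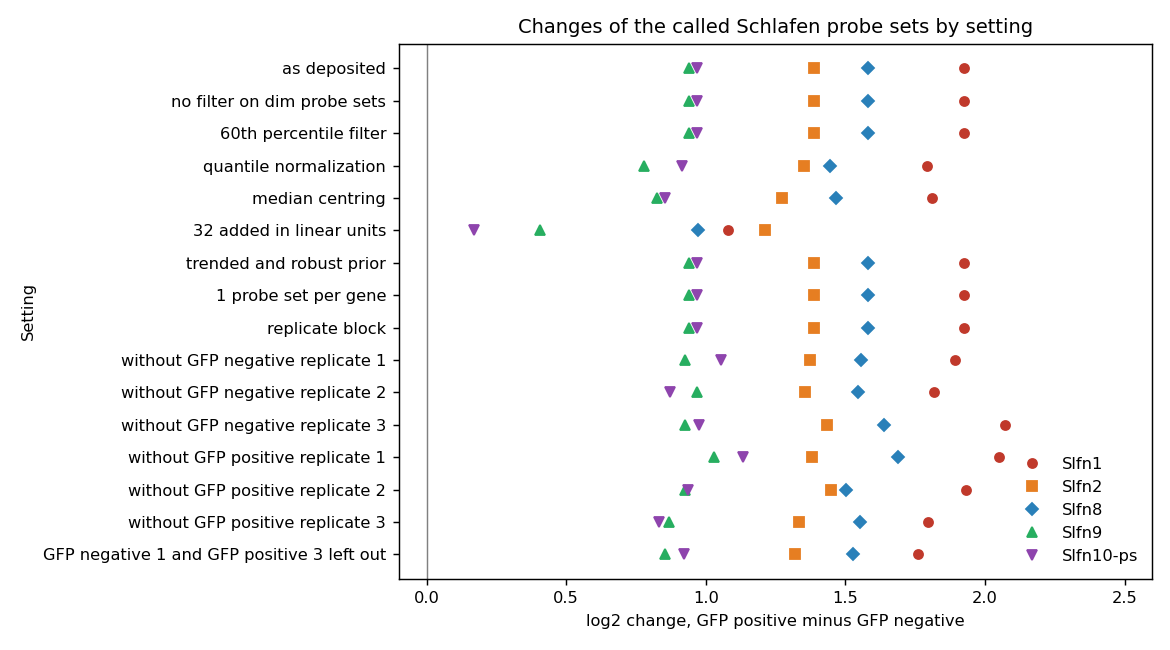
Log2 change of GFP positive over GFP negative cells (x axis) for the called Schlafen probe sets under each processing setting (y axis), with 1 marker per gene. All markers lie right of 0, and adding 32 in linear units moves Slfn10-ps to 0.17 and Slfn9 to 0.41.

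Slfn3 and Slfn4, the intermediate forms, gave no call. Slfn3 read 2.15, 2.38 and 1.46 in GFP positive samples, against 1.60, 2.07 and 1.82 in GFP negative samples (log2 signal, probe set 1421644_at). GFP positive samples held both the highest and the lowest of these readings, and the change of 0.16 had a 95% interval of -0.38 to 0.71 (limma adjusted p = 0.61), which spans a fall as well as a rise. Slfn4, best known from mouse macrophages, read 0.97, 0.90 and 0.84 in GFP positive samples, against 0.85, 1.10 and 1.02 in GFP negative samples (log2 signal, probe set 1427102_at). That is under the filter level, so Slfn4 was not tested. The probe set shared between both genes, 1450322_s_at, read 2.31, 2.50 and 2.03 in GFP positive samples, against 2.04, 2.17 and 1.59 in GFP negative samples, with a change of 0.35 (95% interval -0.06 to 0.76, limma adjusted p = 0.17).

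Slfn5, the remaining long form, was read by 3 probe sets, all under the filter level and so not tested. The brightest, 1456288_at, read 1.00, 1.59 and 1.45 in GFP positive samples, against 0.94, 0.90 and 0.97 in GFP negative samples (log2 signal). The groups did not overlap, as in 25.9% of all tested probe sets with GFP positive samples higher. In a fit with no filter its change was 0.41 (95% interval 0.08 to 0.75) and was not called (limma adjusted p = 0.091). The other Slfn5 probe sets, 1442640_at and 1458458_at, had changes of -0.13 and 0.11 with overlapping groups. Low readings on these probe sets do not show that Slfn5 was not expressed, since probes differ in sensitivity.

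**Figure D3:**
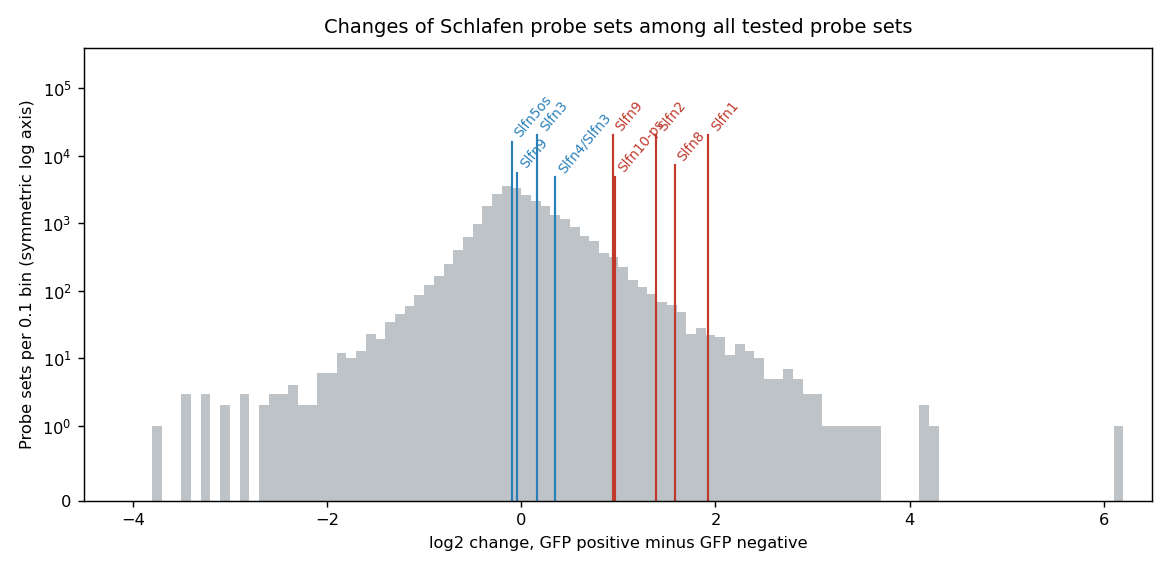
Number of probe sets (y axis, symmetric log scale) by log2 change of GFP positive over GFP negative cells (x axis, bins of 0.1) for all 27022 tested probe sets, with lines at the tested Schlafen probe sets (red where called, blue where not called). Called lines run from 0.94 for Slfn9 to 1.93 for Slfn1, and the others lie between -0.10 and 0.35.

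Related genes at the same locus were read where the annotation lists them. Slfn10-ps, a gene with a pseudogene name that lies between Slfn8 and Slfn2, read 2.87, 3.27 and 3.48 in GFP positive samples, against 2.42, 2.05 and 2.26 in GFP negative samples (log2 signal, probe set 1444350_at). It rose with the Schlafen genes on either side of it, by 0.97 ± 0.17 (log2, SE, 95% interval 0.58 to 1.36, limma adjusted p = 0.0041). This low signal shrank to a change of 0.17 with 32 added in linear units. Slfn5os, a noncoding transcript on the strand opposite to Slfn5, read 1.53, 1.39 and 1.47 in GFP positive and 1.54, 1.88 and 1.27 in GFP negative samples. Its change of -0.10 was not called (limma adjusted p = 0.64). Slfnl1, a distant relative on chromosome 4, read 1.12 to 1.22 in GFP positive and 1.00 to 1.30 in GFP negative samples, under the filter level. Slfn14 was not analysed here.

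Gene order was read for the Schlafen genes and the flanking genes named here, and other genes were not placed. In this order, the called genes Slfn9, Slfn8, Slfn10-ps, Slfn2 and Slfn1 stand side by side. Slfn5 lies before them, and Slfn4 and Slfn3 lie after them. The genes that flank the cluster moved in both directions. Of 9 neighbours tested, 2 were called higher and 4 lower, with a median change of -0.16, against -0.02 over all 13194 genes tested by their brightest probe set, of which 22.6% were called higher and 14.9% lower. Nle1, a ribosome assembly factor gene, fell by 0.69 (limma adjusted p = 0.0066), and the DNA ligase gene Lig3 and the ubiquitin ligase gene Rffl fell by 0.45 and 0.46. On the far side Rasl10b, a small GTPase gene, fell by 0.60 and the clathrin adaptor gene Ap2b1 rose by 0.53. Other tested probe sets of Lig3 (-0.335, -0.2 and -0.169), Rffl (-0.088) and Ap2b1 (0.318 and -0.04) were not called. Taf15, an RNA-binding protein gene, rose by 1.03 from readings of 2.69, 3.38 and 3.97 in GFP positive and 2.47, 2.18 and 2.31 in GFP negative samples, a wide spread in the first group. Rad51d, Fndc8 and Gas2l2 had changes of -0.16, 0.24 and 0.14 without a call, and Unc45b was under the filter level. Without GFP positive 3 and GFP negative 1 the neighbours called numbered 3, of which 1 was higher and 2 lower. With 32 added in linear units, Rffl (-0.21, limma adjusted p = 0.079) and Taf15 (0.21, limma adjusted p = 0.11) lost their calls, and Nle1, Lig3 and Rasl10b changed by -0.26, -0.22 and -0.08. Leaving out any 1 sample other than GFP negative 1 likewise ended the call of Rffl (changes of -0.52 to -0.31), and leaving out GFP positive 2 or any 1 of the GFP negative samples ended that of Taf15 (0.96 to 1.10).

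**Figure D4:**
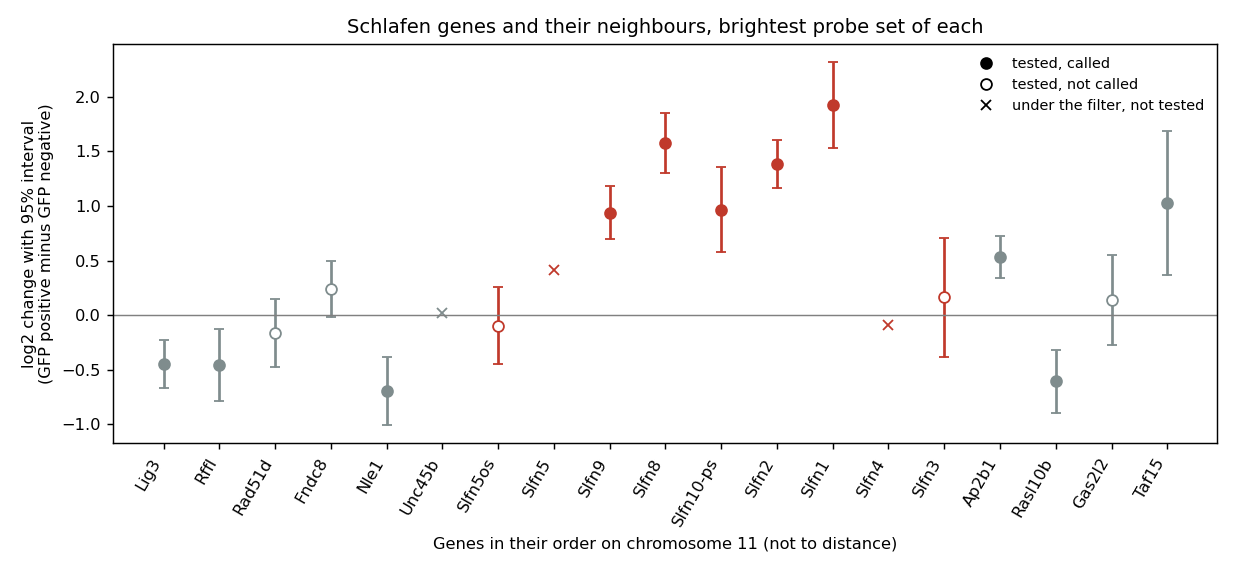
Log2 change with its 95% interval (y axis) of Schlafen genes (red) and their neighbours (grey), by the brightest probe set of each, in gene order on chromosome 11 (x axis, not to distance). Among the genes drawn, Slfn9 to Slfn1 lie between 0.94 and 1.93 side by side, while the neighbours range from -0.69 for Nle1 to 1.03 for Taf15.

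Members of the family respond to interferon, so the interferon pathway was read from ligand to target. The gene lists read here and below were chosen with earlier results of these data known, so their shares are descriptive and not a test. Of 14 tested genes of the signalling chain, 12 rose, 0 fell and 2 were not called, with a median change of 0.80, beside the shares and the median over all genes given above. The ligand gene Ifng rose to 4.74, 4.99 and 4.70 in GFP positive samples, against 2.67, 3.23 and 3.56 in GFP negative samples (log2 signal), a change of 1.66 (limma adjusted p = 0.0012). Its range in GFP negative samples was wide, and with 32 added in linear units its change was 0.55. Ifnb1, the interferon beta gene, was under the filter level. The type I receptor genes Ifnar1 and Ifnar2 rose by 0.76 and 0.85 and the kinase genes Jak1, Jak2 and Tyk2 by 0.58, 1.18 and 0.71 (0.43 for Tyk2 with 32 added), whereas the interferon gamma receptor genes Ifngr1 and Ifngr2 had changes of -0.06 and -0.19 without a call.

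The transcription factors at the end of the chain were higher too. Irf9, the DNA-binding part of the factor that acts on the response element, read 6.28, 6.40 and 6.45 in GFP positive samples, against 4.83, 5.03 and 5.13 in GFP negative samples (log2 signal), a change of 1.38 ± 0.10 (SE, limma adjusted p = 2.0e-04), or 0.85 with 32 added in linear units. Stat2, its partner, rose by 1.13, or 0.23 with 32 added in linear units, and Irf7, an amplifier of the response, by 1.92, or 0.68 on that scale. Irf1 and Irf3 rose by 0.97 and 0.40, and Irf2 by 0.42. The call of Irf2 was lost without GFP negative 1 or 2 (0.42 and 0.40) and after quantile normalization (0.29), and with 32 added its change was 0.27. Of 23 tested interferon-induced genes, 17 rose, 1 fell and 5 were not called, with a median change of 1.17, against 22.6% of all genes called higher, 14.9% called lower and a median of -0.02. The RNA sensor genes Ddx58, Ifih1 and Dhx58 rose by 2.15, 2.02 and 1.66 and the exonuclease gene Isg20 by 2.39, beside 1.93, 1.39, 1.58 and 0.94 for Slfn1, Slfn2, Slfn8 and Slfn9. With 32 added in linear units the changes of Ifih1 and Dhx58 were 1.10 and 0.68. The member that fell was Oasl1 (-0.42, and -0.07 with 32 added), whose call was lost without GFP negative 1 or 3 (-0.38 and -0.40), and Ifit3, Ifi35, Oas1a, Oas2 and Mx2 were not called, with changes from -0.10 to 0.58. Of these, Ifit3 was called higher without GFP positive 2 (0.77), and Ifi35 after quantile normalization (0.27) and with 32 added (0.25). Without GFP positive 3 and GFP negative 1, 10 genes of the chain and 14 induced genes were called, all higher.

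**Figure D5:**
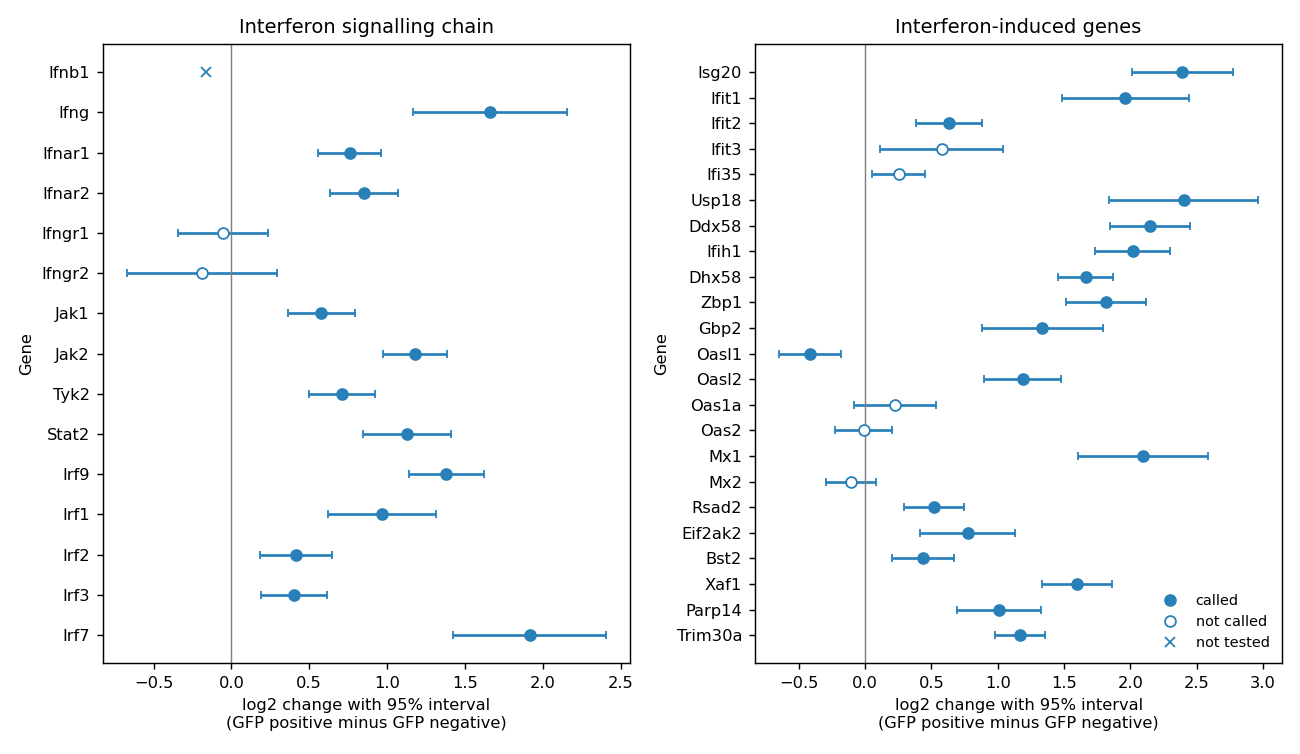
Log2 change with its 95% interval (x axis) for the genes of the interferon signalling chain (left, from ligands to transcription factors) and for interferon-induced genes (right), by the brightest probe set of each gene (y axis). Filled points are called, open points are not, and the cross is under the filter level. Of the tested genes 12 of 14 on the left and 17 of 23 on the right were called higher.

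Because Slfn1 and Slfn2 are known for holding T cells in quiescence, other genes of that state were read beside them. Of 16 tested, 9 rose, 1 fell and 6 were not called, with a median change of 0.41, against 22.6% of all genes called higher, 14.9% called lower and a median of -0.02. Pik3ip1, an inhibitor of PI3 kinase, rose by 2.44 (limma adjusted p = 1.1e-04), the cell cycle inhibitor genes Cdkn2c and Cdkn1b by 1.27 and 1.01, and the forkhead factor gene Foxo3 by 0.88. Btg1 and Btg2, whose products slow proliferation, rose by 0.86 and 1.39, and the transcription factor gene Runx1 by 0.54. Foxp1 (0.46) and Vsir (0.33) were also called, but median centring ended both calls, as did leaving out GFP negative 2 or 3 or GFP positive 2, among other samples (changes of 0.37 to 0.46 for Foxp1 and 0.33 to 0.35 for Vsir). Of the other probe sets of these genes, 6 of 7 for Foxp1 were called higher, by 0.33 (1455242_at) to 2.12 (1438802_at), as was that for Vsir (0.45, limma adjusted p = 0.010). With 32 added in linear units the changes of Pik3ip1, Cdkn1b, Btg2 and Runx1 were 1.42, 0.65, 0.77 and 0.16. Klf2, a factor that maintains quiescence, was the gene that fell, reading 3.59, 3.59 and 3.56 in GFP positive samples, against 6.75, 6.98 and 6.63 in GFP negative samples (log2 signal; limma adjusted p = 1.3e-05), a change of -3.21, or -1.70 with 32 added. Foxo1, Klf4, Tob1, Tsc1, Tsc2 and Il7r were not called on their brightest probe sets. That of Foxo1 was called without GFP positive 2 (0.53). Of the other tested Foxo1 probe sets, 1416981_at rose by 0.63 (limma adjusted p = 0.0029) and 1416982_at was not called (0.43, limma adjusted p = 0.072).

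Schlafen genes are also expressed in myeloid and other blood cells, so markers of these were summed on each array. Of 5 macrophage or monocyte markers read, 3 lay under the filter level, and on the log2 scale their summed level was 3.90 to 4.10 in GFP positive and 4.07 to 4.21 in GFP negative samples. The brightest was Csf1r, the receptor of colony-stimulating factor 1, at 2.66 ± 0.18 in GFP positive and 2.98 ± 0.11 in GFP negative samples (SD, n = 3 each). For neutrophils (brightest marker Elane) 3 of 4 markers lay under the filter level, and the summed level was 3.20 to 3.60 in GFP positive and 3.40 to 3.57 in GFP negative samples. The summed level of 4 dendritic cell markers (brightest Flt3) was lower in every GFP positive sample, at 3.76 to 3.97 in GFP positive and 4.15 to 4.18 in GFP negative samples. Of these 4, Flt3 and Zbtb46 were called lower, and Siglech (-0.22) and Itgax (0.05) were not called. The summed levels of B cell markers (brightest Cd79b) overlapped, at 4.71 to 5.0 in GFP positive and 4.81 to 5.10 in GFP negative samples. CD4 T cell markers (brightest Zbtb7b) summed to 4.55 to 4.69 in GFP positive and 4.30 to 4.49 in GFP negative samples. Of these markers only Zbtb7b was higher (0.42, called), and the higher sum rested on it. Cd4 itself (-0.05) and Cd40lg (-0.14) were not called. The NK cell marker Ncr1 and the erythroid markers, led by Alas2, were under the filter level. Of these sets, only CD8 and CD4 T cell markers had summed levels that were higher in every GFP positive sample than in every GFP negative sample, and 4 of 6 CD8 T cell markers were called higher, against 22.6% of all genes. Their part in the rise of the Schlafen genes was not tested.

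The profile of Slfn2 was closest to those of Slc12a7, Wbp1 and Utrn among 13187 other genes tested, with root mean square differences of 0.051, 0.051 and 0.057 between log2 values centred on their own mean over the 6 samples. The median over those genes was 0.722. Within the family the difference from Slfn2 was 0.180 for Slfn8, 0.256 for Slfn9 and 0.317 for Slfn1, and it was 0.294 for Slfn10-ps. Many genes changed by about as much between the same groups, and the measure mostly reflects that size.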

How the data were processed

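Total RNA of 6 sorted samples was read on Affymetrix mouse arrays after biotin labelling, per the labels' protocols. The authors deposited log2 signals of 45101 probe sets for each array, and this unit follows from their range. Affymetrix Expression Console is named in the submitters' processing notes. Not given in the sources used here are the summary of probes, the background treatment and the normalization. Groups and replicate numbers came from the sample titles.

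Values were used as deposited. There are 64 control probe sets, and of the others 34945 have 1 gene symbol, 932 have several and 9160 are unlisted in the annotation. The 27022 at or above the 40th percentile of mean signal (1.27) were fitted with limma 3.58.1 in R 4.3.3 (two-sided test of group, no covariate), and p-values were adjusted over all of them by Benjamini-Hochberg at a threshold of 0.05. Genes outside the family were read on the probe set with the highest mean. Some genes of the lists are not reported here. The members and lists were chosen with earlier results of these data known. Named from each list were the 4 genes with the lowest p, the flanking genes, Stat2, Irf9, Irf7 and Klf2; other list members given with values were chosen after these were seen. Promoter windows came from RefSeq (GRCm38.p6). No build is named for the array, so genes get no coordinates. The fit was tested on simulated data. Alternatives were other filters, scalings, a prior that follows intensity, 32 added in linear units, 1 probe set per gene, the replicate number as a block, and left-out samples.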

Additional observations from a re-analysis of the deposited data

How the results depend on the processing

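The 4 Schlafen calls (Slfn1, Slfn2, Slfn8 and Slfn9) were made under all 15 alternatives run, with changes of 1.08 to 2.07 for Slfn1, 1.21 to 1.45 for Slfn2, 0.97 to 1.69 for Slfn8 and 0.41 to 1.03 for Slfn9. The highest limma adjusted p was 0.015, for Slfn9 without GFP positive 3 and GFP negative 1. That setting uses fewer samples; it lowered the called probe sets to 4374, from 8786 as deposited, and the called neighbours of the locus to 3, against 6. With 1 probe set per gene, which tests fewer units, 5557 were called. Leaving out each sample in turn gave 6290 to 9518 called probe sets, 4 Schlafen calls each time, and 11 to 12 calls in the interferon chain, 16 to 19 among interferon-induced genes, 8 to 9 among quiescence genes and 4 to 5 among neighbours. Uncalled changes turned sign in a few settings: Slfn3 (-0.027 to 0.434 over the left-out samples) to -0.027 without GFP positive 2, the dim Slfn9 probe set (-0.131 to 0.06) to 0.031 after quantile normalization, 0.057 without GFP negative 3 and 0.06 without GFP positive 2, and Slfn5os (-0.246 to 0.063) to 0.063 without GFP negative 2; the cause was not tested. Centring each array on its median moved the median change of all tested probe sets to -0.14, from -0.02.

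The replicate numbers are shared by the groups, but the labels state no pairing. Same-numbered samples deviated from their group means with correlations across probe sets of 0.30, 0.24 and 0.08. For every sample the highest correlation was with its own number, which is a hint from the data and not the design. The number 3 samples came close to a tie. Against their 0.08, GFP positive 3 had 0.07 with GFP negative 2, and GFP negative 3 had 0.05 with GFP positive 2. With the replicate block 8666 probe sets were called, the 4 Schlafen calls were made, and the shared Slfn4/Slfn3 probe set was called as well (0.35, limma adjusted p = 0.031). Of the genes of the other lists, Ifit3 gained a call (0.58, limma adjusted p = 0.0077) and Vsir lost its call (0.33, limma adjusted p = 0.068).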
